A study of Caenorhabditis elegans with 6 samples.

Results

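The low-recombination centre of chromosome V held 968 of the 8836 regions that the combined UNC-55::GFP list gives for the whole genome of Caenorhabditis elegans. A region belonged to the centre when its midpoint lay from base 5900000 to base 16550000 of V on the WormBase WS220 build, a rule of position alone that uses no score, width or overlap. The centre spans 10.65 Mb, and the rest of V, taken to the last region listed there, spans 10.2 Mb and held 561 regions. The series comprised 3 ChIP samples, precipitated with anti-GFP antibodies, and 3 input samples of chromatin that was not precipitated. All 6 came from whole hermaphrodites of strain NC1639 at larval stage L2, and no sample was from worms without the transgene. The strain carries the integrated array wdIs49 on chromosome III, in which pttr39 drives UNC-55a::GFP alongside dpy-20+, and was not outcrossed. Per its label, GFP is strong in ventral cord GABA neurons and ectopic in some other cells, so a listed region cannot be assigned to one cell type. The sample labels name UNC-55 at L2 throughout, whereas the series title names another protein and stage, and the sample labels were followed. The replicate lists held 6805, 4909 and 2803 regions genome-wide in replicates 1, 2 and 3, and 774, 577 and 355 of these lay in the centre of V. Inputs had no list among the files used, and the read depth behind the lists is unknown.

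UNC-55 is a nuclear receptor orthologous to the vertebrate COUP transcription factors. In the ventral cord it acts in the VD class of GABA motor neurons, where it blocks the synaptic remodelling that the related DD class undergoes. Each worm autosome has a central domain where meiotic crossovers are rare, between arms where they are frequent. Centres are known to be rich in essential and conserved genes, and arms in repeats and fast-evolving families, among them the many chemoreceptor genes of chromosome V. The gene table at hand belongs to another assembly (WBcel235), so no gene, exon or intron was assigned to any region, and no sequence is shown.

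Regions were denser in the centre than in the rest of V in every list. The combined list gave 90.9 regions per Mb in the centre, against 54.9 in the rest of V. Replicate 1 had 72.7 regions per Mb in the centre and 41.7 in the rest, replicate 2 had 54.2 and 28.2, and replicate 3 had 33.3 and 17.3. The ratio of the densities was thus 1.66 in the combined list and 1.74, 1.92 and 1.93 in replicates 1, 2 and 3. The mean of the replicate ratios was 1.86 ± 0.10 (SD, n = 3). The 3 ratios varied far less than the densities themselves, which differed more than 2-fold between replicates 1 and 3 within the centre. The centre held 63.3% of the combined regions of V and between 64.5% and 66.7% of the replicate regions of V.

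The share of sequence under a region differed in the same direction. Combined regions covered 5.52% of the centre (588 kb in all) against 2.94% of the rest of V (301 kb). The replicates covered 4.003%, 2.95% and 1.60% of the centre, against 2.11%, 1.45% and 0.851% of the rest of V. The ratio of covered shares was 1.87 in the combined list and 1.94 ± 0.083 in the replicates (SD, n = 3). Both density and covered share were higher in the centre in 3 of 3 replicates, with a two-sided exact permutation p of 0.25 for each (Benjamini-Hochberg adjusted p = 0.438 over 7 measures). That is the smallest p that 3 replicates can give, so no measure compared here could pass a threshold of 0.05. Centre and rest are read from the same libraries, and regions of a list are not independent samples, so the values are given as descriptions of these 3 replicates.

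**Figure D1:**
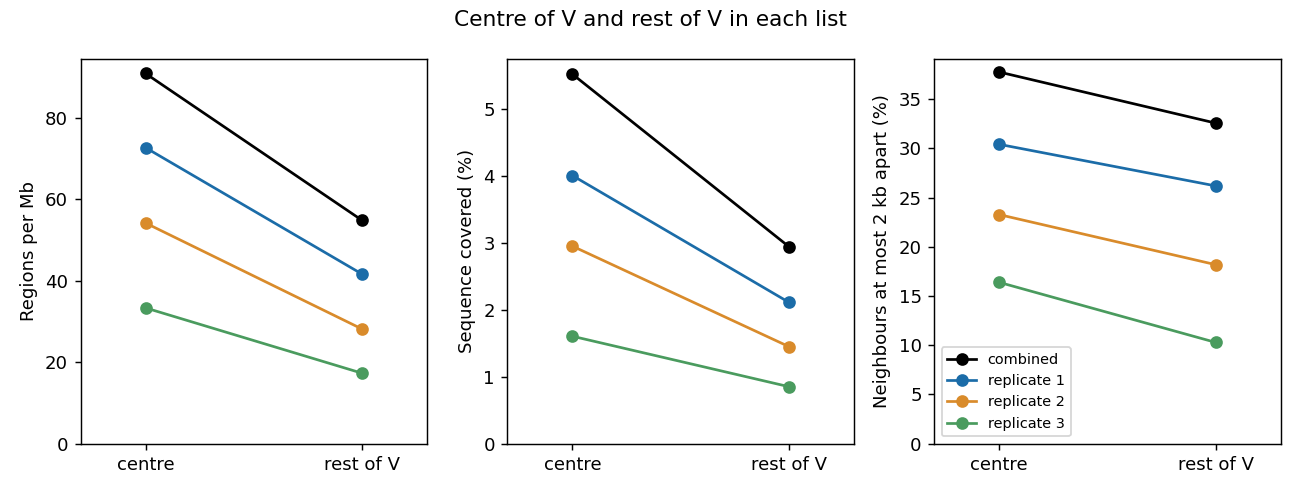
Regions per Mb (left), percent of sequence covered (middle) and percent of neighbouring regions at most 2 kb apart (right) in the centre of V and in the rest of V. Each line joins the values of 1 list; all 4 lists have the higher value in the centre in all 3 panels, from 90.9 against 54.9 regions per Mb in the combined list to 33.3 against 17.3 in replicate 3.

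The 2 arms were both sparser than the centre taken whole. The combined list gave 61.0 regions per Mb on the left arm, of 5.9 Mb, and 46.5 on the right arm, of 4.33 Mb. In the replicates the left arm had 46.6, 31.7 and 18.8 regions per Mb and the right arm 34.9, 23.3 and 15.3. Part of the right arm, from 17007406 to 17514447, was empty in the combined list over 507 kb. Without that stretch in the length of the rest of V the density ratio was 1.57.

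Density was not uniform within the centre. Cut into 10 equal parts of 1.065 Mb, the centre had between 46.0 and 120 combined regions per Mb, with a mean of 90.9 ± 26.3 (SD over the 10 parts). Values stayed above 100 in 5 of the parts: the first, and the 4 that run from 9.095 to 13.355 Mb. The highest combined value was in the seventh part (12.29 to 13.355 Mb, 128 regions), and the lowest was in the last (15.485 to 16.55 Mb, 49 regions). The fifth part followed closely, with 125 combined regions. It was the highest in replicates 1, 2 and 3, with 107, 79 and 50 regions against 101, 70 and 38 in the seventh. In replicate 3 the fourth part also had 50. A dip in the second part, from 6.965 to 8.03 Mb, gave 56.3 combined regions per Mb, below 3 of the 5 bins of the same width on the left arm. That dip was present in each replicate, at 50.7, 40.4 and 19.7 regions per Mb in replicates 1, 2 and 3, against 81.7, 61.0 and 34.7 in the first part.

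The ranges of the centre and the arms overlapped. Bins of 1.065 Mb outside the centre ran from 31.9 to 83.6 combined regions per Mb on the left arm (5 bins) and from 20.7 to 62.9 on the right arm (4 bins). On the left arm the outermost bin had 83.6 combined regions per Mb, against 73.2 in the bin next to the centre. Replicate 1 had the same order there, at 61.0 and 57.3, but replicates 2 and 3 had the opposite one, at 36.6 and 41.3 and at 19.7 and 26.3. Immediately inside the lower border the combined density was 104 regions per Mb, against 73.2 in the bin immediately outside it. At the upper border the values were 46.0 inside and 20.7 outside. The replicates had the same direction at both borders: 81.7, 61.0 and 34.7 inside against 57.3, 41.3 and 26.3 outside at the lower one, and 32.9, 22.5 and 16.9 inside against 18.8, 11.3 and 5.63 outside at the upper one. The 5 parts on the left side of the middle had 95.6 combined regions per Mb and the 5 on the right side had 86.2.

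**Figure D2:**
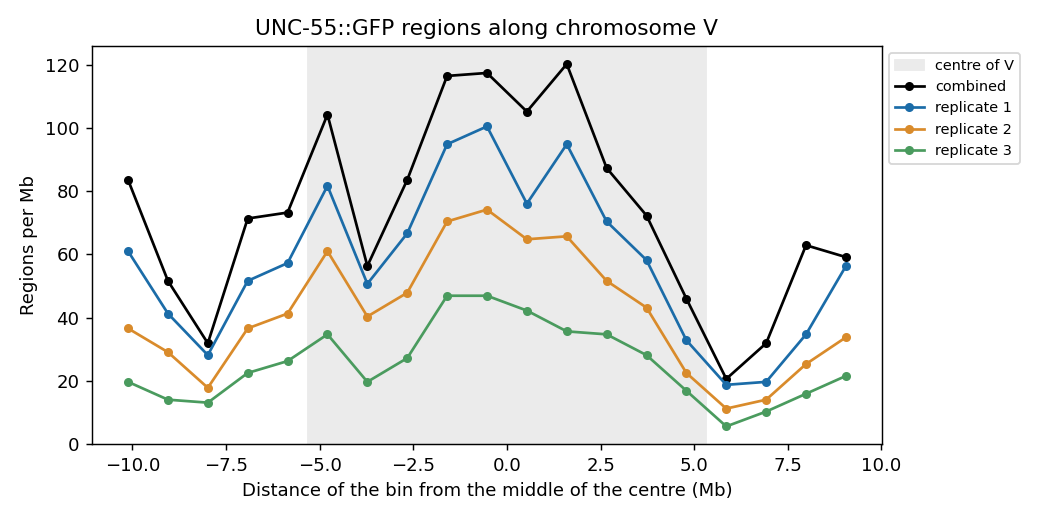
Regions per Mb (vertical axis) in bins of 1.065 Mb, placed by distance in Mb from the middle of the centre (horizontal axis), with the centre shaded and 1 line per list. All 4 lists have their highest value between 9.095 and 13.355 Mb. They also share a dip in the second part of the centre (56.3 regions per Mb in the combined list) and their lowest value in the bin outside the upper border (20.7).

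Regions next to the borders spanned a wide range of ranks. The member nearest the lower border, at 5917720 to 5918111, held rank 1948 and was present in all 3 replicates. The next 2, at 5939502 to 5939872 and 5953099 to 5953823, held ranks 2877 and 5661, and the second of them was found in no replicate. Outside that border the nearest region, at 5891194 to 5891626, held rank 5172 and was present in 2 replicates. At the upper border the last 3 members began at 16498415, 16537767 and 16542050 and held ranks 2654, 212 and 8709, and the nearest region outside, at 16552976 to 16553275, held rank 4186. The last member was only 42 bp wide and was absent from the replicates.

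Regions were ranked within each list by the caller's own p or q value, with rank 1 for the smallest. Of the members, 495 (51.1%) ranked in the better 50% of combined regions, against 258 (46.0%) of the regions in the rest of V. The excess of 5.15 percentage points was 4.47 in replicate 1 and 1.83 in replicate 3, and the difference was -0.61 in replicate 2, so its direction was not shared by the replicates (mean 1.90 ± 2.54 points, SD, n = 3, two-sided exact permutation p = 0.5, adjusted p = 0.583). At the top of the lists the replicates did share a direction. The best-scored 10% of the list took 106 members (10.95%) against 39 regions in the rest of V (6.95%), and in replicates 1, 2 and 3 it took 10.7%, 11.4% and 10.7% of the centre against 7.28%, 8.33% and 7.91% of the rest. That difference was 3.12 ± 0.33 points in the replicates (SD, n = 3, exact permutation p = 0.25, adjusted p = 0.438). In the combined list the arms had nearly the same share in that class, 6.94% on the left (25 regions) and 6.97% on the right (14 regions). They differed in the replicates. The left arm had 6.18%, 6.95% and 5.41% in replicates 1, 2 and 3 (17, 13 and 6 regions). The right arm had 9.27%, 10.9% and 12.1% (14, 11 and 8 regions). The right arm was thus above the centre in replicate 3. On the other chromosomes the share was 10.1% in the combined list and 10.1%, 9.89% and 10.0% in the replicates.

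In each list the density ratio was largest among the best-scored regions. Within the best 10% of ranks, the centre had 9.95 combined regions per Mb, against 3.81 in the rest of V, a ratio of 2.61. The same class gave ratios of 2.57, 2.64 and 2.61 in replicates 1, 2 and 3. Between 10% and 25% of the ranks the ratio was 1.91 in the combined list and 1.71, 1.94 and 1.92 in the replicates. Beyond 75% of the ranks the lists differed: the ratio was 1.39 in the combined list and 1.42 in replicate 1, but 2.15 in replicate 2 and 2.12 in replicate 3. Every class in every list had a ratio above 1. The best class is small, with 83, 66 and 38 members in the centre in replicates 1, 2 and 3, against 31, 24 and 14 regions in the rest of V.

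**Figure D3:**
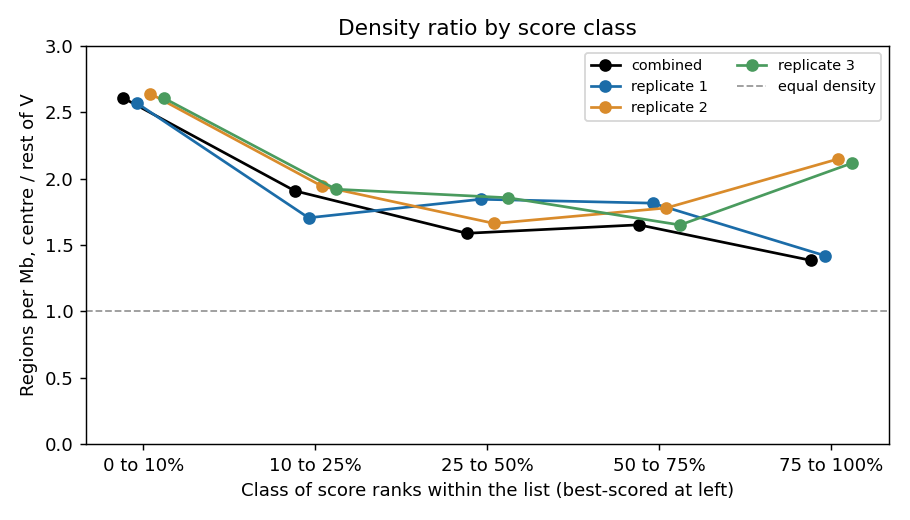
Ratio of regions per Mb in the centre to regions per Mb in the rest of V (vertical axis) by class of score rank within each list (horizontal axis, best-scored class at left), 1 line per list. All 4 lists lie between 2.57 and 2.64 in the best class, and they spread from 1.39 to 2.15 in the last class.

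Among the 100 best-scored combined regions of the genome, 13 lay in the centre and 6 in the rest of V. The centre held 10.96% of all combined regions and the rest of V 6.35%. The counts among the best 100 were 11, 12 and 10 in the centre in replicates 1, 2 and 3, against 6, 5 and 7 in the rest. Those of the centre lay near its shares of these lists, 11.4%, 11.8% and 12.7%, and were below them in replicates 1 and 3. The 10 best-ranked members, all present in the 3 replicates, held ranks 23 to 66 of the combined list and lay between 6226635 and 15072205. They were between 1320 and 4411 bp wide, against a median of 447 bp over all members. By the best rank of any of their pieces, they lay between ranks 22 and 266 in replicate 1, between 35 and 469 in replicate 2 and between 27 and 1277 in replicate 3. The first 3, of ranks 23, 27 and 28, lay within the same part of the centre, at 9729718 to 9732455, 9342895 to 9345675 and 9561277 to 9564149, and had caller values of 6.12e-199, 6.29e-194 and 1.07e-192.

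Replicates divided these wide regions differently. The region of rank 23, 2738 bp wide, was listed as 2 pieces in replicates 1 and 2 and as 3 pieces in replicate 3, with best ranks of 53, 44 and 185. Its outer edges nonetheless varied by only 71 bp at the start and 123 bp at the end. The region of rank 27 was 1 piece of 2789 bp in replicate 1, 1 piece of 1981 bp in replicate 2 and 2 pieces of 1607 bp in sum in replicate 3. Its ranks were 22, 35 and 106, and its end shifted by up to 763 bp between replicates. The region of rank 28 was covered over 2167, 2387 and 1389 bp in replicates 1, 2 and 3 and held ranks 66, 37 and 46. Covered length was smallest in replicate 3 for each of these 3 regions.

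Other members of the top 10 were compact. The region of rank 31, at 15070843 to 15072205, was 1 piece in every replicate, of 1345, 1204 and 950 bp, and held ranks 24, 42 and 27. The region of rank 63, at 11640923 to 11642242, was also 1 piece throughout, of 1054, 1240 and 1194 bp, with ranks of 58, 66 and 48. These 2 were the members of the top 10 whose midpoints lay within 200 bp of a replicate region in all 3 replicates. At the other extreme stood the region of rank 65, at 7816387 to 7820797. It fell into 2, 4 and 3 pieces in replicates 1, 2 and 3 and held ranks of 76, 469 and 1277, the last of which is at 45.6% of the list of replicate 3. The region of rank 66, at 10832312 to 10835651, had ranks of 266, 78 and 284. The regions of ranks 52, 56 and 59, at 10174403 to 10176175, 6226635 to 6230645 and 7726181 to 7729943, ranked between 51 and 200 in every replicate.

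**Figure D4:**
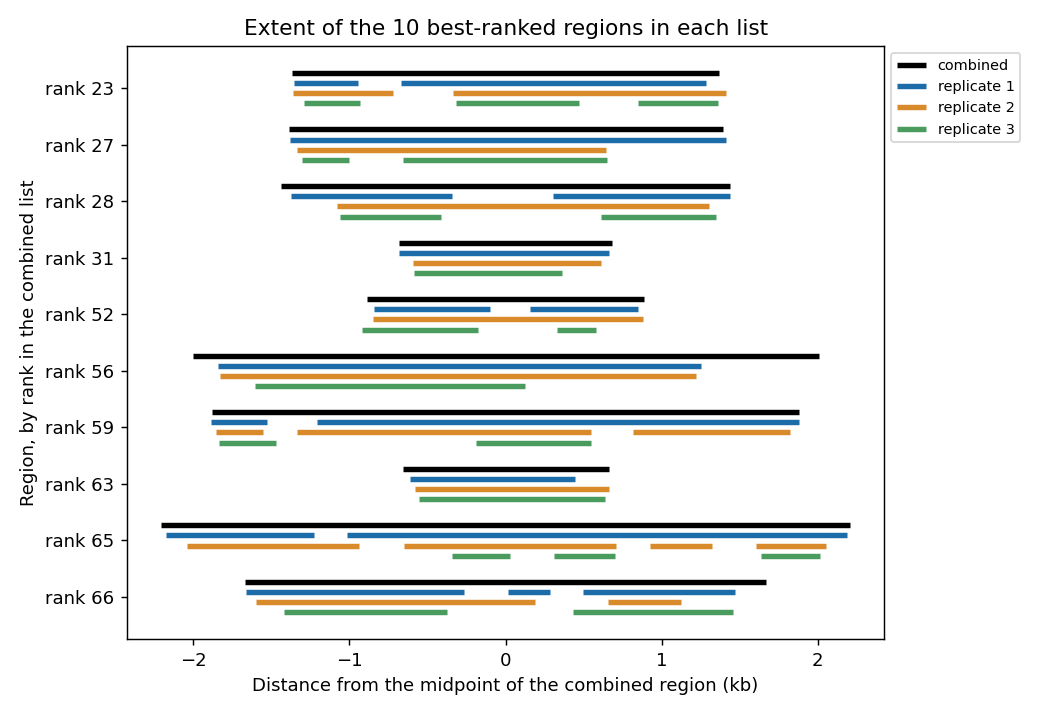
Extent of the 10 best-ranked members in each list, as distance in kb from the midpoint of the combined region (horizontal axis), 1 row of bars per list and region (vertical axis, labelled by rank in the combined list). The regions of ranks 31 and 63 are single bars in all 4 lists, whereas the region of rank 65 is split into 2, 4 and 3 pieces in replicates 1, 2 and 3.

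The best members of a single replicate were mostly these regions too. Of the 10 best-ranked centre regions of replicate 1, 9 overlapped one of the 10 combined regions, and 8 did so in replicate 2. Replicate 3 differed more, with 5 of 10. Its 10 best were 406 to 1729 bp wide, against 750 to 3205 bp in replicate 1 and 1204 to 3051 bp in replicate 2.

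The 5 widest members measured 4864, 4411, 4020, 4011 and 3763 bp. The widest, at 8166382 to 8171245, held rank 173 and was listed as 5, 2 and 2 pieces in replicates 1, 2 and 3, with best ranks of 982, 583 and 1403. Of the 5, those of 4020 and 4011 bp were neighbours, at 6222368 to 6226387 and 6226635 to 6230645. A gap of 247 bp separated them, so together they spanned 8.28 kb. Their ranks differed, at 310 and 56 in the combined list, and in replicate 3 they were covered over 767 and 1729 bp.

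Median widths in the centre and the rest of V were within 10 bp of each other in the combined list. The median was 447 bp in the centre (quartiles 329 and 708 bp) against 437 bp in the rest (quartiles 302 and 630 bp). In replicates 1, 2 and 3 it was 432, 427 and 402 bp in the centre, against 411, 426 and 403 bp in the rest of V. The mean difference of 7.2 ± 12.5 bp (SD, n = 3) was smaller than the spread between replicates (exact permutation p = 0.75, adjusted p = 0.75). Broad regions, of at least 2000 bp, numbered 27 of 968 members (2.79%) against 8 of 561 (1.43%) in the rest of V and 103 of 7307 (1.41%) on the other chromosomes. The arms differed, with 5 of 201 regions (2.49%) on the right arm, close to the centre, and 3 of 360 (0.83%) on the left arm. Of the 27, 25 (92.6%) were present in all 3 replicates, against 8 of 8 in the rest and 94 of 103 (91.3%) on the other chromosomes. As the replicates list them, broad regions numbered 13, 7 and 0 in the centre and 1, 0 and 1 in the rest, so replicate 3 showed no excess. Wider members were better scored: across members the Spearman correlation of width with rank number was -0.70 (n = 968), and it was -0.74 across the 561 regions in the rest of V. These correlations are across regions of 1 list and carry no test.

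Members lay closer together than regions in the rest of V. The median gap between neighbours was 3.65 kb in the centre, against 5.61 kb in the rest, in the combined list. In replicates 1, 2 and 3 it was 5.62, 8.29 and 14.3 kb in the centre, against 8.71, 14.5 and 24.3 kb. Neighbours at most 2 kb apart made up 37.7% of the gaps in the centre and 32.6% in the rest. The replicates gave 30.4%, 23.3% and 16.4% in the centre, against 26.2%, 18.2% and 10.3%, a difference of 5.13 ± 0.94 points in 3 of 3 replicates (SD, n = 3, exact permutation p = 0.25, adjusted p = 0.438). Spacing moves with density, which was 1.66 times as high in the centre, and the part of density in this difference was not tested.

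Chains of close regions were common in the centre. With neighbours at most 2 kb apart joined, 342 members (35.3%) belonged to runs of 3 or more, against 159 regions (28.3%) in the rest of V. In the replicates the share was 26.4%, 19.6% and 11.3% in the centre, against 20.0%, 9.03% and 3.39%. Runs, like spacing, move with density, and the part of density in these shares was not tested. Members in such runs were wider than those that stood alone, with medians of 559 and 406.5 bp. The same medians in the rest of V were 497 and 404.5 bp. Members in runs of 3 or more included 20 of the 27 broad members, against 6 of the 8 broad regions in the rest of V. Their presence in the replicates was similar, since 32.7% of them and 35.5% of the lone members were found in all 3. In the rest of V those shares were 28.9% and 29.9%.

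The longest runs of the centre had 9 members each, and there were 2 of them. In the rest of V the longest had 8 regions each, and there were also 2. The longest run in replicates 1, 2 and 3 had 8, 8 and 4 regions in the centre, against 8, 5 and 3 in the rest. The first run of the centre went from 6538250 to 6553801 over 15.6 kb, of which 6.12 kb were covered. Its members held ranks 1793 to 8550, 2 were found in all 3 replicates and 2 in none. The second run of the centre went from 15069427 to 15085800 over 16.4 kb, with 9.94 kb covered, and included the region of rank 31 described above. In that run 5 members were found in all 3 replicates, and replicates 1, 2 and 3 had 8, 7 and 5 regions there. The first run held 9, 6 and 2. The longest gaps within the centre measured 139, 126 and 113 kb, from 16160534, 8949702 and 15275276, and no replicate had a region inside any of them.

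Presence in the replicates was judged by an overlap of at least 1 bp. How the combined list was pooled is not given, so presence is not taken as independent support for a region. Of the 968 members, 322 (33.3%, exact 95% interval 30.3 to 36.3%) overlapped a region in all 3 replicates, against 29.2% in the rest of V (interval 25.5 to 33.2%) and 29.5% over the whole combined list. The excess over the rest, 4.03 points, was 2.58 points with a reciprocal overlap of at least 50% and 2.43 with midpoints within 200 bp. No replicate had an overlapping region for 210 members (21.7%, interval 19.1 to 24.4%), against 27.1% in the rest of V and 24.4% over the whole list. The intervals cover counting error and treat regions as independent. A further 217 members (22.4%) were found in 2 replicates and 219 (22.6%) in 1, against 20.9% and 22.8% in the rest of V. The median width was 661 bp for members in all 3 replicates, 532 bp for those in 2, 390 bp for those in 1 and 232 bp for those in none. In the rest of V these medians were 649, 500, 374 and 238.5 bp. Of the 210 members in none, 0 were in the better-scored 50% of the list. The same held for 0 of 152 such regions in the rest of V and 5 of 2154 over the whole list. The best of the 210, at 12891041 to 12891882, held rank 5289. The next 2, at 15959482 to 15959868 and 9965701 to 9966338, held ranks 5537 and 5539.

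**Figure D5:**
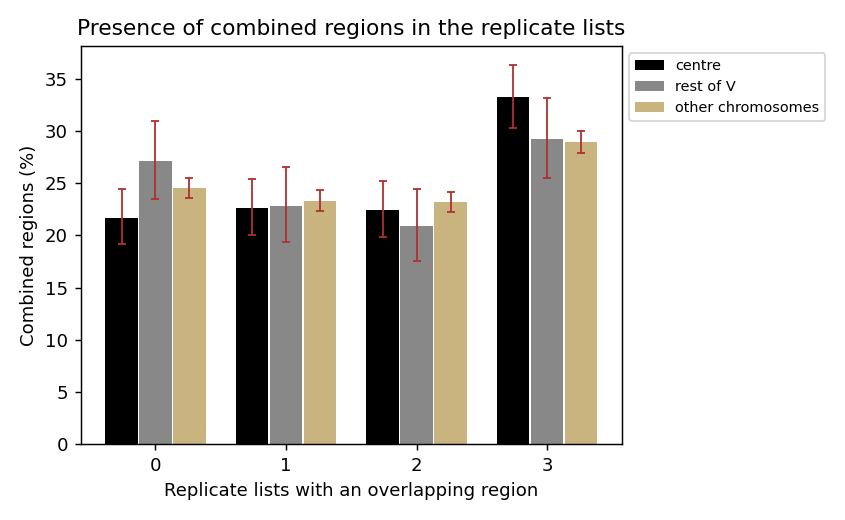
Percent of combined regions (vertical axis) that overlap a region in 0, 1, 2 or 3 replicate lists (horizontal axis) in the centre of V, the rest of V and the other chromosomes; error bars are exact 95% intervals for counting error. The centre has 33.3% in all 3 replicates and 21.7% in none, against 29.2% and 27.1% in the rest of V. The intervals of the centre and the rest of V overlap in all 4 classes. They treat regions as independent, so their overlap is no test of a difference.

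The presence of members followed the length of the replicate lists. Replicate 1 had a region for 75.6% of members, replicate 2 for 56.8% and replicate 3 for 34.8%, against 71.3%, 50.1% and 30.8% of regions in the rest of V. The commonest incomplete patterns were replicates 1 and 2 without 3 (205 members, 21.2%, against 19.6% in the rest of V) and replicate 1 alone (194 members, 20.0%, against 21.2%). Replicate 3 alone accounted for 3 members, and replicates 2 and 3 without 1 for 1. Covered share was also higher in the centre in every replicate, and its part in these counts was not tested.

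Within classes of score rank neither the centre nor the rest was higher throughout. In the best 10% of ranks all 106 members and all 39 regions of the rest were found in all 3 replicates. From 10% to 25% of the ranks the share was 88.7% of 159 members, against 92.5% of 80 regions. From 25% to 50% it was 31.7% of 230 members, against 36.0% of 139. From 50% to 75% it was 2 of 222 members (0.901%), against 1 of 129 (0.775%), and beyond 75% of the ranks it was 0 in both. In the combined list the share was thus higher in the rest of V from 10% to 50% of the ranks. The centre was higher only in the class that rests on 2 regions against 1. For regions of a replicate found in both others, the class from 25% to 50% had 55.6%, 74.6% and 98.9% in the centre in replicates 1, 2 and 3, against 53.9%, 73.2% and 100% in the rest. From 50% to 75% it had 13.1%, 40.3% and 96.5% in the centre, against 14.9%, 38.7% and 92.0%. Direction thus varied between classes and replicates. Viewed from the replicates, the share of regions found in both other replicates was 42.6%, 57.9% and 95.8% in the centre in replicates 1, 2 and 3, against 39.2%, 58.0% and 93.8% in the rest of V. That difference averaged 1.77 ± 1.78 points and was positive in 2 of 3 replicates (SD, n = 3, exact permutation p = 0.5, adjusted p = 0.583).

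Between pairs of replicates, nearly all centre regions of the shorter list recurred in the longer. Of the 355 centre regions of replicate 3, 98.9% overlapped one of replicate 1 and 96.1% one of replicate 2, and of the 577 of replicate 2, 95.5% overlapped one of replicate 1. In the rest of V the same shares, in that order, were 98.9%, 93.8% and 96.9%. Conversely, replicate 2 held 71.1% and replicate 3 held 44.1% of the 774 centre regions of replicate 1, and replicate 3 held 58.1% of the 577 of replicate 2. These shares were 65.0%, 41.1% and 58.0% in the rest of V. Matched midpoints differed by a median of 44 to 47 bp in the centre, against 49 to 52.5 bp in the rest of V. Ranks of matched centre regions correlated with Spearman's rho between 0.70 and 0.81 over these 6 comparisons, across regions and without a test. In the rest of V rho was between 0.77 and 0.80. For regions of replicate 3, matched in replicates 1 and 2, rho was lower in the centre (0.70 in both) than in the rest (0.77 and 0.78).

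Edges were compared between replicates for members that recurred as single regions. Among the 289 members that had exactly 1 region in each replicate, starts spread over a median of 91 bp and ends over 87 bp, against 107 and 85 bp for 151 such regions in the rest of V and 73 bp at both edges on the other chromosomes. Their median width was 504, 453 and 396 bp in replicates 1, 2 and 3 and 611 bp in the combined list. Both edges varied by at most 10 bp over the 3 replicates for 0 of these members and for 0 regions in the rest of V, against 12 of 1979 such regions on the other chromosomes. Few regions of the replicates lacked a combined region: 9 of 774 in the centre against 16 of 426 in the rest of V in replicate 1, 1 against 0 in replicate 2 and 0 in both in replicate 3. The best of these in replicate 1, at 10960854 to 10961111, held rank 5927, and the 1 in replicate 2, at 13355248 to 13355559, held rank 4635. Neither was present in another replicate.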

How the data were processed

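Chromatin was precipitated with anti-GFP antibodies in 3 ChIP samples, each with a numbered input. The authors deposited 4 lists of regions. Per the file headers the build is WormBase WS220, and the source column names PeakSeq as caller. For aligner, thresholds and pooling, nothing is given in the sources used here. The deposited score of a region is a p-value or q-value, at most 0.001 in every list, and the headers do not say which, so it was used only to rank within a list. Start and end positions are the other values used. The depth per sample is unknown.

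Centre and rest of V were compared within each list. Differences were tested over the 3 replicates with a two-sided exact sign-flip permutation test, adjusted over 7 measures (Benjamini-Hochberg). Shares have exact (Clopper-Pearson) 95% intervals. The labels do not say whether replicates were separate cultures, so the spread may be technical. The position rule for members, and the rules for named regions, were chosen with earlier results of these data known. Named regions are the 10 best-ranked members found in all 3 replicates, the 5 widest, those at each border, the longest runs and gaps, the 3 best-ranked found in no replicate and the best replicate regions without a combined one. Alternatives covered borders, score cuts, overlap rules, merging and leaving out replicates. Code was tested on simulated data (200 of 200 planted shared regions recovered), and overlap counts had 0 differences from bedtools 2.31.1. Analyses ran in Python 3.11.15 with SciPy 1.17.1, pandas 2.3.3, numpy 2.4.6 and matplotlib 3.10.9.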

Additional observations from a re-analysis of the deposited data

How the results depend on the processing

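Of 50 alternative values, 34 stayed within 1 SD of the replicates, 13 moved by more and 3 changed direction. For the share found in all 3 replicates, the SD used was that of an unlike measure. It was the share of replicate regions found in both other replicates. The replicate lists that give the SD are also among the alternatives, so these counts only describe the size of the changes. The density ratio of 1.66 stayed above 1 under every alternative run. It was 1.92 and 1.93 with the lists of replicates 2 and 3 and 1.84 with the better-scored 50% of combined regions. Its lowest values were 1.55 with regions under 1 kb apart merged and 1.57 without the longest empty stretch. The ratio of covered shares, 1.87 as reported, was 2.03 with the list of replicate 2, 2.01 in the better-scored 50%, 1.77 with both borders 0.5 Mb inwards and 1.78 without the longest empty stretch. The width difference of 10 bp had no stable direction: it was -1 bp with the list of replicate 3 and -8 bp with the borders inwards, but 58 bp in the better-scored 50%. The excess of neighbours at most 2 kb apart, 5.19 points, was 4.22 with the list of replicate 1, 3.74 with the borders inwards and 7.72 at a distance of at most 5 kb. The excess in the better-scored 50% was 1.83 points with the list of replicate 3 and -0.61 with that of replicate 2. The excess found in all 3 replicates, 4.03 points, was 2.58 with a reciprocal overlap of at least 50%, 2.43 with midpoints within 200 bp, 1.97 with the better-scored 50% of each list, and 3.92 to 5.60 when 1 replicate was left out. Without 1 replicate the mean density ratio was 1.83 to 1.92. Of the 10 best-ranked members, 2 kept a match in all 3 replicates under a reciprocal overlap of at least 50%, and 2 with midpoints within 200 bp. The causes were not tested. No paired analysis was possible because the inputs have no list among the files used, as far as ChIP against input is concerned. The comparison of centre and rest is itself made within each replicate. Unknown depth limits every comparison of list lengths.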
